A study of Rattus norvegicus with 6 samples.

Results

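Histone mRNAs were measured in sorted rat β-cells by 55 array probes for 39 genes, out of 45598 probes and 36174 gene names on the array. The genes were chosen by name alone, as those whose name in the array files starts with Hist1h to Hist4h, H2af, H3f3 or H1f. Of the 39 genes, 28 (35 probes) carry the Hist prefix of the histone gene clusters, and 11 (20 probes) are replacement and variant histones. The probe with the highest mean over all 6 arrays stood for a gene with several probes, which was the case for 12 genes. In 36 of the 39 genes that probe stood well above background on all arrays of a group.

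The study asked how gene expression differs between β-cells that replicate and β-cells that do not. Islets of young adult male Wistar rats were pooled from 4 rats in each of 3 preparations and cultured overnight at basal glucose with EdU, a thymidine analogue that is built into newly made DNA. The dispersed cells were loaded with the zinc dye Newport Green and fixed, and β-cells were sorted as large, granular and zinc-rich cells. EdU-positive cells made up the replicating group and EdU-negative cells the quiescent group, with 1 array of each from every preparation. All cells had gone through the same culture, fixation and sort, and the RNA of every sample was amplified before it was hybridized. The paper reports fewer cells and less RNA for the replicating fraction, so the input to amplification may have differed with the group. Of all probes, 86.5%, 80.8% and 87.3% stood well above background on the replicating arrays of preparations 1, 2 and 3. On the quiescent arrays 96.4%, 98.4% and 85.7% did. An effect of input could not be told apart from one of the group. An EdU-positive cell had passed through S phase at any time of the overnight culture and need not have been in S phase when it was fixed. In such pools, fewer cells of a type and less RNA per cell cannot be told apart.

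DNA is wound around octamers of the core histones H2A, H2B, H3 and H4, and the linker histone H1 binds the DNA where it enters and leaves the octamer. Cells make most of their histones during S phase from genes that lie in clusters. The mRNAs of these replication-dependent genes carry no poly(A) tail in dividing cells, end shortly after a short stem-loop, and are degraded when DNA synthesis stops. Replacement histones such as H2A.Z, H3.3 and H1.0 are encoded by genes outside the clusters with ordinary polyadenylated mRNAs, are made in all phases of the cell cycle and are exchanged into chromatin independently of replication.

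The stem-loop itself could be read in the probes, and it is shown here because it marks the end of the processed mRNA. The longest run shared by probes of 4 histone genes was 17 bases long, with arms of 6 complementary bases around a loop of 4. It was present in 9 of the 45598 probes, 5 of them for these 4 genes. The run is given in capitals, with up to 6 bases before it and up to 7 after it inside the probe.

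Hist1h2bf (probe at chr17:50343406-50343465, + strand): cccaaaGGCTCTTTTCAGAGCCAccta

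Hist1h2ai (probe at chr17:50387858-50387917, + strand): accaaaGGCTCTTTTCAGAGCCAcctataa

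Hist2h2aa3 (probe at chr2:191044891-191044950, - strand): aaaaacGGCTCTTTTCAGAGCCAcccacag

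Hist1h2an (no position in the files): GGCTCTTTTCAGAGCCAtctactt

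Positions are those of the array files, on the rat build rn4. These 4 probes reach past the stem-loop to unequal lengths. In the Hist1h2bf probe 39 bases lie before the run and 4 after it, in the Hist1h2ai probe 36 and 7, in the Hist2h2aa3 probe 8 and 35, and in the Hist1h2an probe 0 and 43.

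Probes in the coding part of clustered histone genes can be alike, so that a signal may come from the mRNA of a neighbour. The most alike pairs among the genes with large ratios are given next, with the bases that match between the probes of a pair in capitals. Hist1h2bl and Hist3h2ba matched at 56 of 58 aligned bases, Hist1h4b and Hist2h4 at 43 of 46, and Hist1h2ail1 and Hist2h3c2 at 40 of 44.

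Hist1h2bl (chr17:48772038-48772097, + strand): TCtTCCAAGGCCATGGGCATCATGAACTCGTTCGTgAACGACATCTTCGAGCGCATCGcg

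Hist3h2ba (chr10:45238316-45238375, + strand): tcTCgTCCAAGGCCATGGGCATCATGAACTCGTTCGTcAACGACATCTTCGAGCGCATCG

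Hist1h4b (chr17:50113699-50113758, + strand): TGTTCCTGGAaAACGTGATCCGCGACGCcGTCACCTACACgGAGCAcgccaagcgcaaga

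Hist2h4 (chr2:191075880-191075939, - strand): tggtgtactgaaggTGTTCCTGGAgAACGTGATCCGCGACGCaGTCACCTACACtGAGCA

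Hist1h2ail1 (chr17:48768394-48768453, - strand): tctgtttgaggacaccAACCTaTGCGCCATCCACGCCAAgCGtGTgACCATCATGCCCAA

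Hist2h3c2 (chr2:191081775-191081834, + strand): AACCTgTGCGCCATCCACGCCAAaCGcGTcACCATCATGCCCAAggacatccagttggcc

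The last pair joins a gene named as an H2A with a gene of histone H3. The probe listed under Hist1h2ail1 is therefore counted with H2A by its name only. The promoter sequence found for this gene, of the set described below, runs into codons that spell the start of histone H3. That of Hist2h3c2 does so too. In all, 13 of the 55 histone probes shared a run of at least 20 bases with a probe of another gene name, of which 12 belonged to cluster genes and 1 to a variant gene. This count misses alike probes whose matching bases are broken by mismatches. It leaves out Hist1h4b and Hist2h4 of the pairs above, and Hist3h3, whose probe matched that of Hist2h3c2 at 42 of 49 bases. Values of genes with alike probes are not independent of each other.

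Replicating and quiescent cells were compared at each probe with limma, within preparations. Following the threshold of the study, a probe counted as called when its unadjusted p was 0.05 or less and its log2 ratio was 1 or more in size. With 1 probe per gene name this called 4.24% of all names higher and 4.51% lower in the replicating cells. At an adjusted p under 0.05 (Benjamini-Hochberg over all probes) limma called 0 probes, while 4379 probes, or 9.6%, had an unadjusted p of at most 0.05, and the smallest adjusted p of a histone gene was 0.149. Quiescent array 2 stood apart from the others. It had 1583 outlier spots, against 252 to 299 on the other arrays, and over all probes its Pearson's r was 0.830 with quiescent array 1 and 0.654 with quiescent array 3, while the replicating arrays had r values of 0.967 to 0.986 with each other. Quiescent arrays 1 and 3 had an r of 0.867. Ratios and counts without quiescent array 2 are given beside results that it moves most.

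Most cluster histone genes were higher in the replicating cells. Of the 28 genes, 15 were called higher and 1 lower, or 53.6% called higher against the 4.24% of all gene names. The median log2 ratio of the 28 genes was 1.29, with 1.28, 0.72 and 1.06 in preparations 1, 2 and 3, against -0.07 over all probes. Every replicating value lay above every quiescent value for 17 of them, which was the case for 8.62% of all gene names, and below for 3, against 7.4% of all gene names. Without quiescent array 2 the counts were again 15 higher and 1 lower, with 14 of the 15 genes shared, as Hist3h3 was no longer called and Hist1h2ai was. Without preparation 1 they were 9 and 1. By their place on rn4, 10 of the 18 cluster genes on chromosome 17 were called higher, 3 of the 5 on chromosome 2 (and 1 lower) and 2 of the 4 on chromosome 10.

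**Figure D1:**
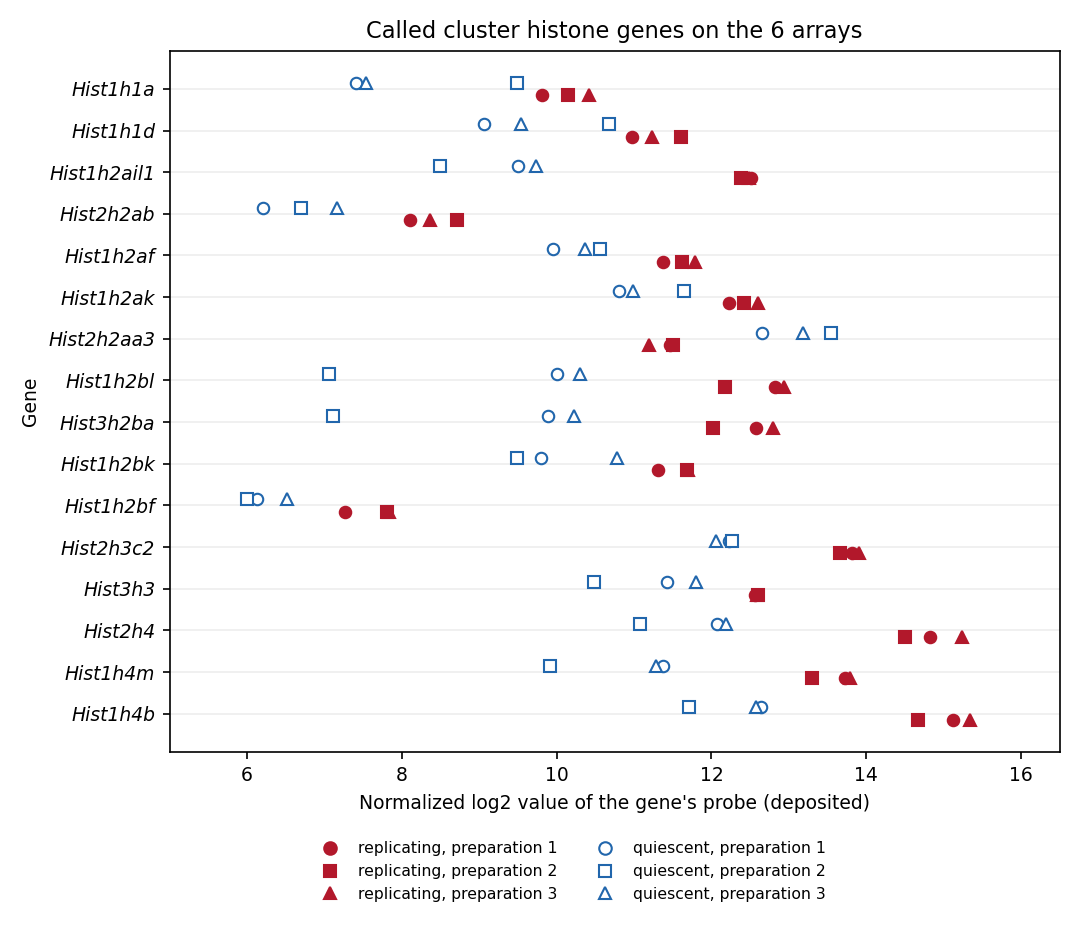
Normalized log2 value (horizontal axis) of the 16 called cluster histone genes on each array, 1 gene per row; filled red symbols are replicating and open blue symbols quiescent cells, and the symbol's shape gives the preparation. In 15 rows all red symbols lie to the right of all blue ones, and in Hist2h2aa3 to the left; levels of different genes come from different probes and are not comparable.

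Histone H4 pairs with H3 to form the inner tetramer of the octamer, and its genes were the class with the highest median. All 3 H4 genes were called higher, with a median log2 ratio of 2.75. Hist2h4 had normalized log2 values of 14.82, 14.50 and 15.24 in replicating cells (preparations 1, 2 and 3 in turn, as in all values that follow) and of 12.07, 11.07 and 12.19 in quiescent cells. The ratio was 3.08 (standard error 0.33), or 8.44-fold, and had the smallest adjusted p of the histone genes (0.149 in limma). Hist1h4b gave 15.12, 14.67 and 15.34 in replicating and 12.64, 11.71 and 12.58 in quiescent cells, a ratio of 2.73 (standard error 0.31). Hist1h4m gave 13.73, 13.30 and 13.80 against 11.37, 9.91 and 11.29, a ratio of 2.75 (standard error 0.36). In each of these genes all replicating arrays lay above all quiescent ones, and quiescent array 2 was the lowest. Without that array the ratios of Hist2h4, Hist1h4b and Hist1h4m were 2.73, 2.43 and 2.28, and all 3 were called. With the median over its 2 probes, which differ as described below, Hist1h4b had a ratio of 0.84 and was not called.

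Both cluster genes named as H3 were called higher. Hist2h3c2 had values of 13.82, 13.66 and 13.91 in replicating cells and 12.23, 12.27 and 12.06 in quiescent cells, with a ratio of 1.61 (standard error 0.31), or 3.05-fold. Its quiescent arrays lay close together, quiescent array 2 included. Hist3h3 (12.56, 12.60 and 12.58 against 11.43, 10.49 and 11.80) had a ratio of 1.34 and the largest p of the called cluster genes; it falls outside the rule for named genes and is given to complete the class. Its second probe, of the same sequence, gave 1.39. Without quiescent array 2 both gave 0.96 and were not called.

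H2B and H2A form the outer dimers of the octamer, and their genes were divided. Of the 9 H2B genes 4 were called higher and 5 were not called, with a median ratio of -0.18. Hist1h2bl had the largest ratio of all histone genes, 3.52 (standard error 0.58), or 11.5-fold, from 12.82, 12.18 and 12.94 in replicating and 10.01, 7.06 and 10.31 in quiescent cells. A second Hist1h2bl probe, with no value on quiescent array 2 and dimmer on each of the 5 arrays that measured both, read 11.50, 11.42 and 12.77 in replicating cells against 9.52 and 10.18, and gave a smaller ratio of 2.29, also called. Hist3h2ba, whose probe is nearly the same, gave 12.57, 12.02 and 12.79 against 9.89, 7.11 and 10.22, a ratio of 3.39 (standard error 0.56). In these genes quiescent array 2 was far below the other quiescent arrays, and without it the ratios were 2.49 and 2.41. Hist1h2bk (11.31, 11.68 and 11.69 against 9.79, 9.49 and 10.77) had a ratio of 1.55. Hist1h2bf, measured by the probe that ends just past the stem-loop, was dimmer (7.26, 7.81 and 7.83 against 6.13, 6.00 and 6.51) and had a ratio of 1.42 with the groups apart. The size of this ratio depended on the background offset, and with an offset of 0 it was 2.84.

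Of the 10 genes named as H2A, 4 were called higher and 1 lower, with a median ratio of 0.45. Hist1h2ail1 is an H3 by its first codons and is an H2A in these counts by name only. It gave 12.51, 12.39 and 12.48 in replicating and 9.50, 8.50 and 9.73 in quiescent cells. Its ratio was 3.22 (standard error 0.37), or 9.31-fold, and 2.85 without quiescent array 2. Hist2h2ab gave 8.11, 8.71 and 8.36 against 6.21, 6.69 and 7.16, a ratio of 1.70, which was 2.66 with an offset of 0. Hist1h2af (11.37, 11.62 and 11.79 against 9.95, 10.56 and 10.36) and Hist1h2ak (12.23, 12.42 and 12.61 against 10.81, 11.64 and 10.99), with probes alike at 50 of 57 bases, had ratios of 1.30 and 1.27. In all of these the replicating arrays lay above the quiescent ones.

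Hist2h2aa3 went the other way. Its values were 11.47, 11.50 and 11.19 in replicating and 12.65, 13.55 and 13.18 in quiescent cells, so that the replicating arrays were all below the quiescent ones. The ratio was -1.74 (standard error 0.35), or 3.34-fold lower, with -1.18, -2.05 and -1.99 in preparations 1, 2 and 3 and an adjusted p of 0.475 in limma. This is the probe with 35 bases beyond the stem-loop.

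Of the 4 linker histone genes of the clusters 2 were called higher and 0 lower. Hist1h1a had values of 9.81, 10.14 and 10.41 in replicating and 7.41, 9.48 and 7.53 in quiescent cells, with a ratio of 1.98 (standard error 0.52). Hist1h1d gave 10.97, 11.61 and 11.23 against 9.06, 10.68 and 9.54, a ratio of 1.51 (standard error 0.35). For both genes quiescent array 2 was the highest of its group, and without it the ratios were 2.65 and 1.97. Hist1h1b had a ratio of 0.79 and was not called, although its groups did not overlap.

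**Figure D2:**
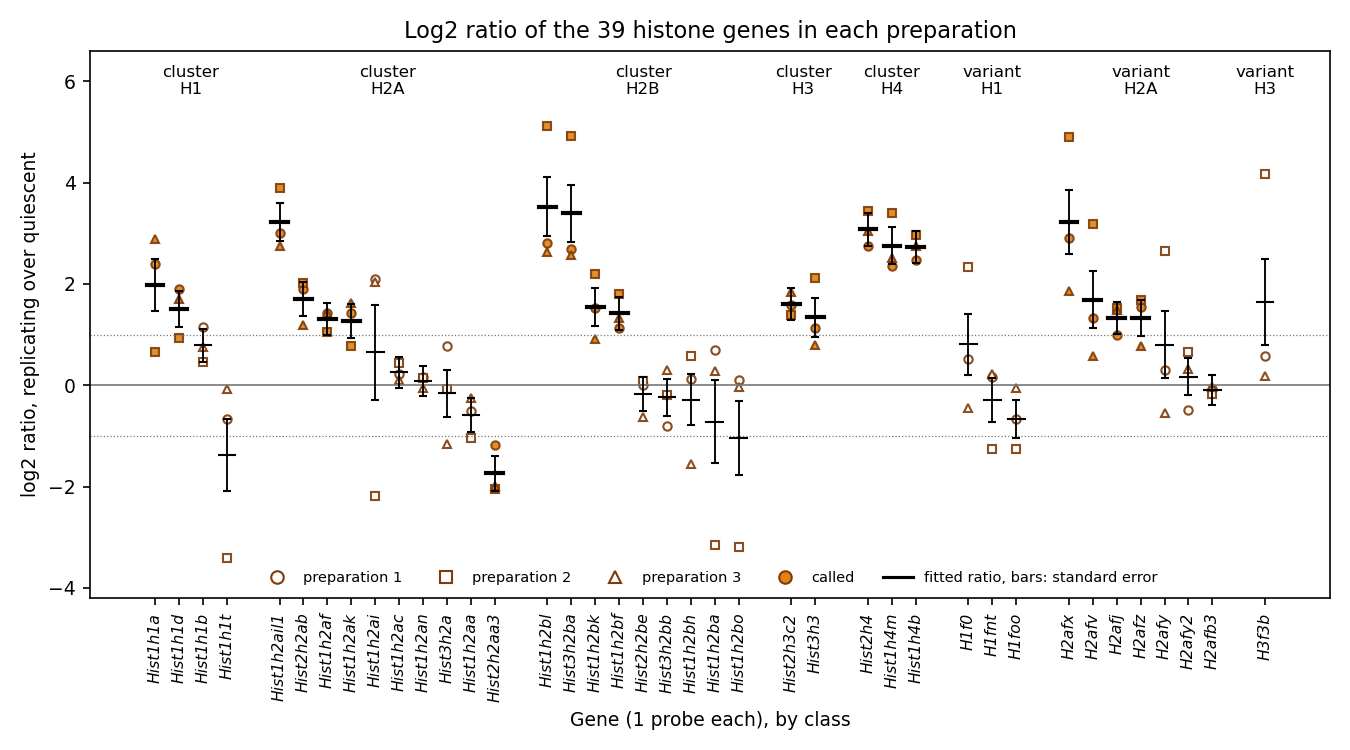
Log2 ratio of replicating over quiescent cells (vertical axis) for each of the 39 histone genes, grouped by histone class. Symbols are the 3 preparations (orange where the gene was called), black bars the fitted ratio with its standard error, and dotted lines a ratio of 1 and -1; the fitted ratios of the H3 and H4 cluster genes lie above 1, while H2A, H2B and the variants spread on both sides of 0.

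The 12 cluster genes that were not called had ratios between -1.38 and 0.79. Among them were Hist1h1t, Hist1h2aa and Hist1h2ba, which encode histones known from male germ cells. With the variants H1fnt, H1foo and H2afb3, also known from germ cells, they made up 6 genes, a grouping made from their known roles after the values had been seen. The grouping is not complete. It leaves out Hist3h3, now named H3f4 and also known from testis, which was called higher at 1.34. None of the 6 was called, where 4.24% of all gene names were called higher and 4.51% lower. Their median was -0.63, with -0.29, -1.26 and -0.04 in the 3 preparations. All 6 fitted ratios were below 0, but without quiescent array 2 only 3 of 6 were, with a median of -0.14, since Hist1h2ba turned from -0.72 to 0.29, H1fnt from -0.29 to 0.13 and H2afb3 from -0.09 to 0.003. The second Hist1h2ba probe, with no value on that array, gave 0.67. Apart from the grouped genes, 15 of 25 cluster genes, Hist3h3 among them, were called higher, with a median of 1.34 that was 1.44 without quiescent array 2. Of the 8 other variant genes 4 were called higher, with a median of 1.33 (by preparation 0.79, 2.50 and 0.45) that was 0.68 without that array. The probes of Hist1h2ac and Hist1h2an stood well above background on 0 arrays, so their ratios carry no level. Without these genes the other 26 cluster genes had a median of 1.32, the same counts of 15 called higher and 1 lower, and 16 with every replicating above every quiescent value. Hist1h2ai, the stem-loop probe with 7 bases beyond the run, had ratios of 2.09 and 2.04 in preparations 1 and 3 and -2.18 in preparation 2, where quiescent array 2 read 11.36 against 6.88 and 7.61 on the other quiescent arrays. Without that array its ratio was 2.02 and it was called.

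Whether a core cluster probe read higher differed with its place in the transcript. The files place each probe by its first base in a transcript, and a division at base 400, close to the length of a core histone's coding sequence, was made after the values had been seen. Of 18 core probes that start before it (bases 59 to 335, for 14 genes), 15 were called higher, with a median ratio of 1.66 (by preparation 1.74, 2.23 and 1.73). The 3 that were not belong to Hist1h2aa and Hist1h2ba. Of 13 core probes that start from base 400 on (bases 419 to 2524, for 12 genes), 1 was called higher and 1 lower, with a median of -0.16 (by preparation 0.15, -0.08 and -0.05). Among all probes 4.44% were called higher and 4.18% lower. The counts by position hold some sequences 2 times. Hist2h4 and Hist3h3 each have 2 early probes of the same sequence, and Hist1h2an has 2 such later probes. The called probes of the second set are the stem-loop probes of Hist1h2bf and Hist2h2aa3. Without quiescent array 2, 13 of the early probes were called higher and 0 lower (median 1.68), and of the later ones 2 higher and 2 lower (median -0.04). Without the 3 later probes that stood well above background on 0 arrays, the other 10 had a median of -0.21.

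Of the cluster genes, 2 carried a probe on each side of that base. Hist1h4b had a ratio of 2.73 with the probe from base 200 and -1.05 with the one from base 566, which read 7.75, 7.75 and 7.83 in replicating and 8.30, 8.30 and 9.88 in quiescent cells. The files place that second probe 3514 bases from the first on the genome, against 366 in the transcript. Hist3h2ba had 3.39 from base 193 and 0.07 from base 559, with 10.34, 10.24 and 10.49 against 9.52, 10.83 and 10.50, where the groups overlapped.

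Base composition moved with position. The early core probes had a median G+C content of 55% and the later ones of 38.3%. Over all probes on the array, 3.58% of those with 50% to under 60% G+C were called higher, and 5.33% of those under 40%. Brightness did so too, since 16 of the 18 early and 8 of the 13 later probes stood well above background on all 6 arrays. The other early probes, of Hist1h2ba and Hist1h2bl, had no value on quiescent array 2 and stood well above background on the rest. Likeness to other histone probes also differed with position. All the alike pairs printed above are of early probes, among them those of Hist1h4b and Hist3h2ba. Of the later probes, those of Hist1h2ai, Hist1h2bf and Hist2h2aa3 shared a run of at least 20 bases with a probe of another name. The part of these properties in the difference was not tested.

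**Figure D3:**
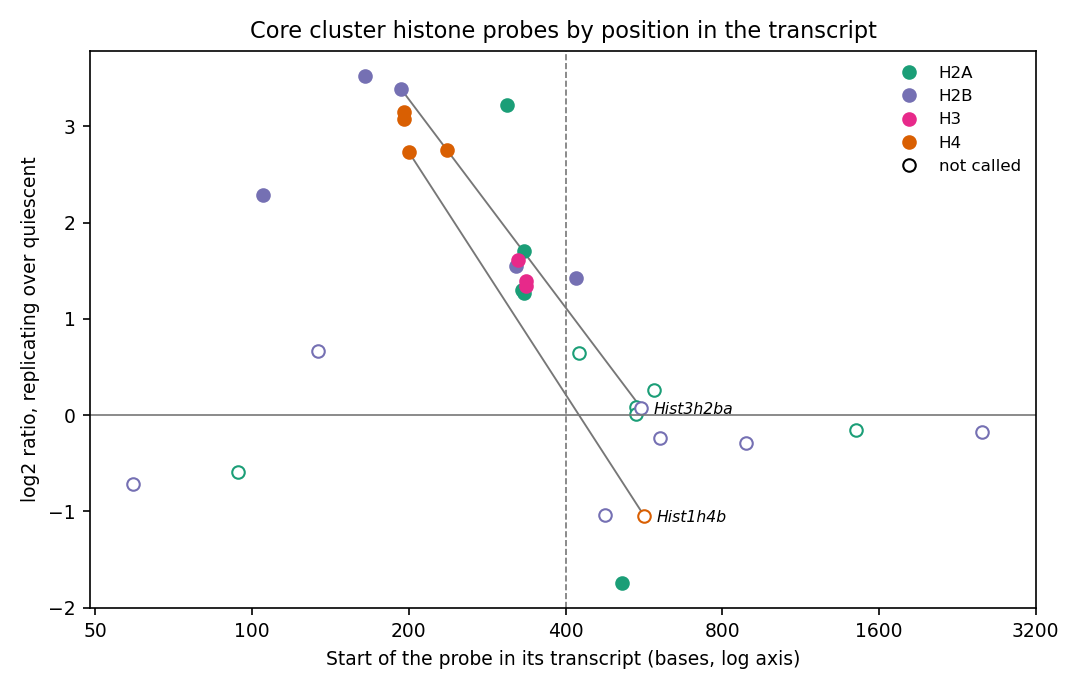
Log2 ratio of replicating over quiescent cells (vertical axis) of each core cluster histone probe against the first base of the probe in its transcript (horizontal log axis), coloured by histone and filled where called. Lines join the 2 probes of Hist1h4b and of Hist3h2ba; left of the dashed line at base 400, 15 of 18 probes were called higher, and right of it 1 of 13.

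Of the 11 replacement and variant histone genes 4 were called higher and 0 lower, all 4 of them H2A variants, or 36.4% called higher against 4.24% of all gene names. The median log2 ratio was 0.80, with 0.52, 1.68 and 0.23 in preparations 1, 2 and 3. Without quiescent array 2 the median was 0.13, and again 4 genes were called higher.

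H2afx encodes H2A.X, the variant that is phosphorylated around DNA breaks. Its values were 12.09, 11.95 and 11.73 in replicating and 9.17, 7.06 and 9.86 in quiescent cells. The ratio of 3.22 (standard error 0.63), or 9.34-fold, was the largest of the variants, and it was 2.41 without quiescent array 2. H2afx transcripts are known in a short stem-loop form and a longer polyadenylated form, and the probe starts at base 902.

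H2afz and H2afv encode the isoforms of H2A.Z, which is exchanged into nucleosomes at promoters. H2afz gave 14.91, 14.85 and 14.70 in replicating and 13.37, 13.16 and 13.94 in quiescent cells, a ratio of 1.33 (standard error 0.35). All 4 probes of H2afz were called higher, with ratios of 1.33, 1.84, 1.61 and 1.62. H2afv gave 12.02, 12.52 and 12.23 against 10.69, 9.35 and 11.66, a ratio of 1.69 (standard error 0.57). The 3 dimmer probes of H2afv had ratios of 0.67, 0.78 and -0.20 and were not called. The brightest gave 1.08 without quiescent array 2, where it was called, and 0.95 without preparation 2, where it was not. The H2afz probe with a ratio of 1.84 fell to 0.85 without quiescent array 2 and was then not called.

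H2afj encodes another H2A variant. Its brightest probe, from base 290, gave 12.22, 13.22 and 13.67 in replicating and 11.23, 11.70 and 12.18 in quiescent cells, a ratio of 1.33 (standard error 0.32). The probe from base 429 gave 12.00, 11.85 and 12.03 against 12.31, 13.09 and 12.71, a ratio of -0.75, with the replicating arrays below the quiescent ones. With the median over its probes, H2afj had a ratio of 0.29.

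H3f3b, a gene for the replacement histone H3.3, gave 13.28, 12.97 and 13.24 in replicating and 12.70, 8.80 and 13.07 in quiescent cells. Its ratio of 1.64 (standard error 0.85) was not called (unadjusted p = 0.108 and adjusted p = 0.478 in limma) and was 0.28 without quiescent array 2. A dimmer probe, from base 280, was called at 1.50 (10.24, 10.27 and 10.78 against 9.19, 7.57 and 10.03), but gave 0.82 without quiescent array 2 and was then not called.

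H1f0, the linker histone H1.0 of differentiated cells, gave 11.65, 11.50 and 11.69 against 11.12, 9.16 and 12.15, a ratio of 0.80. H2afy and H2afy2 encode the macroH2A proteins, whose extra globular domain sets them apart from other H2As. H2afy gave 10.24, 9.96 and 10.04 against 9.94, 7.30 and 10.58, a ratio of 0.80, and H2afy2 gave 7.67, 8.09 and 7.89 against 8.15, 7.43 and 7.56, a ratio of 0.17. None of these was called, and the groups overlapped in each. Without quiescent array 2 the ratios of H1f0 and H2afy were -0.02 and -0.18. The germ cell variants H1foo (8.27, 8.65 and 8.53 against 8.93, 9.91 and 8.59) and H2afb3 (7.32, 7.54 and 7.45 against 7.40, 7.72 and 7.48) had ratios of -0.66 and -0.09.

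**Figure D4:**
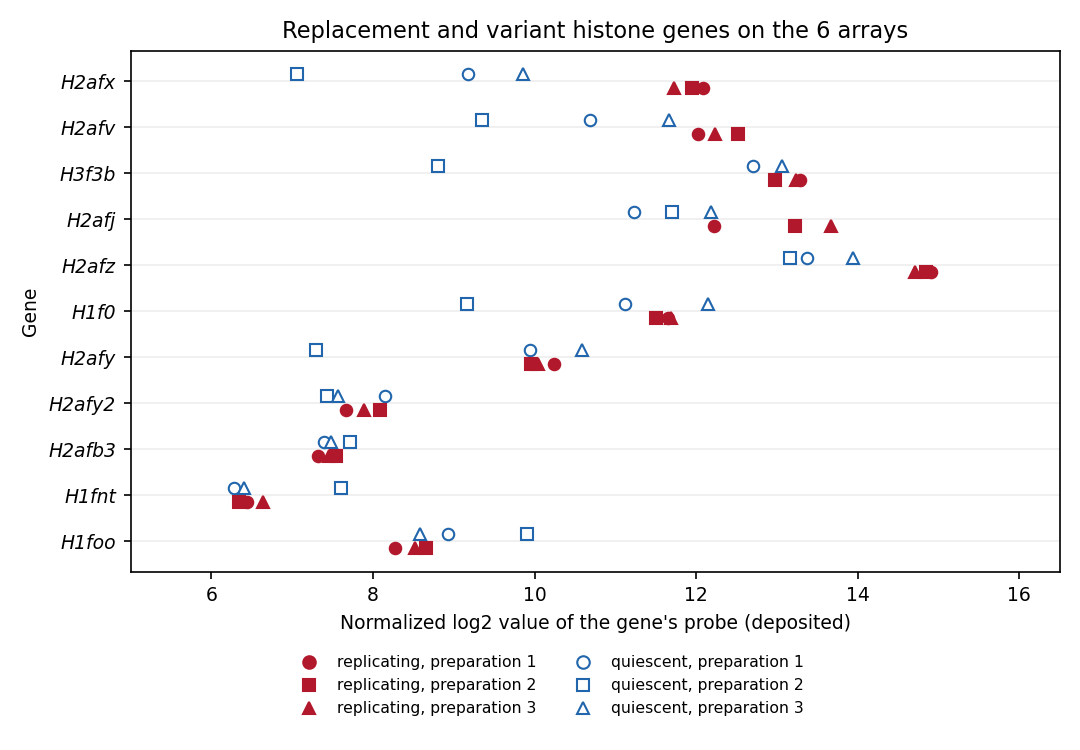
Normalized log2 value (horizontal axis) of the 11 replacement and variant histone genes on each array, 1 gene per row in the order of their ratio; filled red symbols are replicating and open blue symbols quiescent cells, and the shape gives the preparation. Groups are apart for H2afx, H2afv, H2afj and H2afz, while in H3f3b, H1f0 and H2afy only the quiescent array of preparation 2 lies far to the left.

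Set side by side, the median ratio of the cluster genes exceeded that of the variant genes by 0.48. The difference was 0.76 and 0.83 in preparations 1 and 3 and -0.96 in preparation 2, so its direction turned with the preparation. It was 1.17 without quiescent array 2, 1.03 without preparation 2 and -0.26 without preparation 3. A difference in size between cluster and variant genes was therefore not larger than the spread between preparations, while calls were made in both sets.

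Genes that act on histones were counted from lists, to be read beside the 4.24% of all gene names called higher and 4.51% called lower. Among genes for the transcription and 3′ processing of histone mRNA, 3 of 23 on the array were called higher and 0 lower, with a median ratio of 0.51. They were Cpsf2 (1.48), a subunit of the cleavage complex, Eri1 (1.35), an exonuclease that binds the stem-loop, and Pou2f1 (1.29), the octamer-binding factor Oct-1. Slbp, the stem-loop binding protein, had a ratio of 0.39 and Npat, the coactivator of the cluster genes, of -0.24, and neither was called. The Slbp probe was dim, well above background on 2 replicating arrays and 1 quiescent array, so its ratio says little about the level. By preparation the median of this list was 0.46, 0.97 and 0.002, and without quiescent array 2 it was 0.25 and limma called 0 of the 23 genes. Of 10 genes for chaperones and other factors that handle new histones around replication, 5 were called higher and 0 lower, with a median of 1.16. They were Hat1 (2.62), which acetylates new H4, Nasp (2.12), an H3-H4 carrier, Rbbp7 (1.69), Mms22l (1.46) and Asf1b. The Asf1b probe was well above background on 0 quiescent arrays, 1 of which gave no value, and its level in replicating cells was at least 2.50-fold higher (adjusted p = 0.475 in limma), measured against the lowest signal well above background on each quiescent array. Hat1 had values of 10.40, 10.30 and 10.54 in replicating and 7.92, 6.30 and 9.15 in quiescent cells. Of 15 genes for the exchange of H2A.Z and H3.3, 3 were called higher and 0 lower (Actl6a 1.70, Anp32e 1.52 and Srcap 1.02), with a median of 0.83 (by preparation 0.87, 1.52 and 0.17). Without quiescent array 2 that median was 0.42 and 2 genes were called, as Actl6a fell to 0.94. The list of chaperones and other factors for new histones then had a median of 1.27 with 6 called higher. For reference, 11 of 12 genes of S phase and mitosis were called higher, with a median of 2.92.

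As a check of the β-cell label, Ins1 read 16.68 to 17.10 in replicating and 15.92 to 17.20 in quiescent cells, and of the 11 β-cell identity genes on the array 0 were called higher and 1 lower (Mafa, -1.01). Markers of other cells moved with the groups. Of the fibroblast and stellate markers, 4 of 12 were called higher and all 12 ratios were above 0, with list means of 8.97 to 10.18 on the replicating and 8.13 to 8.41 on the quiescent arrays. The called ones were Col6a3 (3.06), Col3a1 (3.04), Col1a2 (2.93) and Vim (1.89). Of the alpha, delta and PP cell markers, 4 of 8 were called higher and 7 of 8 ratios were above 0, with means of 9.40 to 10.20 against 8.39 to 9.14. The called ones were Gcg (2.39), Gc (1.86), Sst (1.74) and Ppy (1.21). Without quiescent array 2 only 2 of the 8 were called, as Gc gave 0.89 and Sst 1.11 and neither was called. Gcg, the glucagon gene, gave 14.23, 15.52 and 16.39 in replicating and 12.89, 12.25 and 13.84 in quiescent cells. The counts were 2 of 8 for immune, 2 of 10 for acinar and duct, and 0 of 8 for endothelial markers. Without quiescent array 2 they were 2, 1 and 0, and 5 of 12 for fibroblast and stellate markers. The called immune markers were then Aif1 and Lyz2 in place of Cd68 and Cd74. Of all gene names 4.24% were called higher. The part of these markers in the histone ratios was not tested.

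Promoters were read to describe what the members share beyond their names. A promoter sequence from 250 bases before to 50 after the gene's start was found in RefSeq (assembly GRCr8) for 22 cluster and 11 variant genes. CCAAT, on either strand, was present in 20 of the 22 cluster and 7 of the 11 variant promoters, and in 37.5% of all 33469 promoters. TATAAA was present in 13 of 22 and 3 of 11, against 14.2% of all. The octamer ATTTGCAT was present in 8 of 22 and 1 of 11, against 1.78% of all. The 8 cluster promoters were those of 4 of 7 genes named as H2B and 4 of 7 named as H2A. The promoters of Hist1h2aa and Hist1h2ba overlap on opposite strands, as do those of Hist3h2a and Hist3h2bb, so that the 22 promoters are 20 distinct stretches and the 8 with the octamer are 6. None of these motifs contains another, and a match is a description of the letters. An H2B promoter, an H2A promoter and that of H2afx are shown with these motifs, on either strand, in capitals.

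Hist1h2bk (chr17:47181891-47182190, - strand, GRCr8): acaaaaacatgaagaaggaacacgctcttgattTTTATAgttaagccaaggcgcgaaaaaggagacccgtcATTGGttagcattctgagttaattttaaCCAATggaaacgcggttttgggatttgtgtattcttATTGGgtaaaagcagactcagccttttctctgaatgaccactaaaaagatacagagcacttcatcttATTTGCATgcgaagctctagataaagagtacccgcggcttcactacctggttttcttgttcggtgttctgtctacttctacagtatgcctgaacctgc

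Hist1h2af (chr17:41807604-41807903, - strand, GRCr8): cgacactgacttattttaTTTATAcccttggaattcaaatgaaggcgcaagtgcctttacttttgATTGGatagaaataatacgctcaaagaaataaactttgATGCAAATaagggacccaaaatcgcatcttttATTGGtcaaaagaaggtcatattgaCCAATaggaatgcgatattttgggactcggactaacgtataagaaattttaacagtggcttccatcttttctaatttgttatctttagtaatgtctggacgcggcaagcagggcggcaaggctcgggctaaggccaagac

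H2afx (chr8:53568468-53568767, + strand, GRCr8): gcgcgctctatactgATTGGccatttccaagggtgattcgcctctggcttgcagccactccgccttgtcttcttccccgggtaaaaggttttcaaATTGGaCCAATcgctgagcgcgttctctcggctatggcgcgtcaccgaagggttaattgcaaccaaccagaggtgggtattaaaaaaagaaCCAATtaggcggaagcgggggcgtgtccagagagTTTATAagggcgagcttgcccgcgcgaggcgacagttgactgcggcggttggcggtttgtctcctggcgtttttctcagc

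Set against the calls, 2 of the 8 cluster genes with the octamer were called higher (Hist1h2bk and Hist1h2af) and 11 of the 14 without it. For TATAAA the counts were 8 of 13 and 5 of 9, and for CCAAT 11 of 20 and 2 of 2, the last being Hist1h4b and Hist1h4m, whose promoters held none of the 3 motifs. Of the octamer genes that were not called, Hist1h2aa and Hist1h2ba encode germ cell histones. The others, Hist1h2an, Hist3h2a, Hist1h2bh and Hist3h2bb, were read only by probes that start from base 400 on. Motif and probe position thus overlap in these genes, and their parts cannot be told apart. The counts by motif were made after the values had been seen and were not tested.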

How the data were processed

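Fixed, sorted cells of 3 islet preparations (4 rats each) gave 3 replicating and 3 quiescent samples. Agilent rat arrays were hybridized with Cy3-labelled cDNA from a whole transcriptome amplification, on 1 slide with 1 scan. The authors read the arrays with Feature Extraction 10.7.3.1, whose deposited intensity values are not normalized between arrays, with probe positions on rn4. A table of log2 values, deposited by the authors after normexp background correction and quantile normalization, gives 1 value per spot. These were used here and equalled, within 0.000245, normexp at an offset of 50 and quantile normalization of the deposited intensities. Control spots and outlier spots were left out, the spots of a probe averaged (1, 2 or 10 per probe), and the probe with a value on all 6 arrays and the highest mean stood for a gene; that a probe lacking a value comes last was settled after values had been seen.

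Probes were tested in R 4.3.3 with limma 3.58.1 (lmFit, eBayes) with the preparation as a block and Benjamini-Hochberg adjustment across the 45598 probes, and the files were read with the data.table package (version 1.17.8). The pairing comes from the labels and design text, and across probes the deviations of the arrays of a preparation from their groups' means had r of 0.0561, 0.242 and 0.258. The fit was tested on simulated data. No test was run over a gene list. Members, lists and tests were chosen with earlier results of these data known. Named with all values are the variants well above background on a whole group and the 15 called cluster genes with the smallest p; of other lists, called genes. Gene names are those of the array files; by transcript accession 34 of the 39 matched RefSeq, where several now have other names (H2afx is H2ax, H2afz is H2az1, H2afv is H2az2). The number of arrays limits the precision. Alternatives were the scanner intensities, an offset of 0, scaling to the 75th percentile, a filter on dim probes, outlier spots kept, a variance trend, no block, a gene's median over its probes, each preparation left out and, added after the data were seen, quiescent array 2 left out without a block.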

Additional observations from a re-analysis of the deposited data

How the results depend on the processing

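Leaving out quiescent array 2, the division of probes at base 400 and the histone probes under other names were chosen after seeing the data. All 9 summary values and 25 named ratios were computed under up to 13 alternatives. Scaling the processed signal to the 75th percentile moved the median of all probes to -0.68, from -0.07, and called 709 probes higher and 3532 lower (2023 and 1905 otherwise); relative to that shift the cluster median of 1.43 lay higher than before. It left 12 cluster genes higher and 1 lower, 1 variant called, 14 genes called in the other histone and S phase lists (22 otherwise, 13 shared), and a median of -0.86 for the later core probes. Scaling the normexp values so moved the median of all probes to -0.36, called 7594 probes (1790 higher and 5804 lower, 903 at the adjusted p), 15 cluster genes higher and 3 lower, and gave the later core probes -0.57. An offset of 0 gave the early core probes 1.99. Leaving out a preparation gave 581 to 10745 called probes, 10 to 16 called cluster genes and 2 to 4 variants (fewest without preparation 1), 10 to 29 genes of the other lists, and medians of -0.27 to 0.11 for the later core probes; without quiescent array 2 the counts were 1668 probes, 16 cluster genes, 4 variants and 18 list genes. Without the replicate block 2757 probes (99 at the adjusted p), 16 cluster genes and 4 variants were called. With a variance trend 61 probes passed the adjusted p. With a gene's probes summarised by their median 2 variants were called.

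The ratio of H2afy2 turned to -0.47 and -0.30 under the 2 scalings. With a preparation or quiescent array 2 left out it lay between -0.079 and 0.49 (lowest without preparation 2), that of H2afy between -0.18 and 1.48, that of H1f0 between -0.021 and 1.43 and that of H2afb3 between -0.13 and 0.0029; the last 3 turned without quiescent array 2, and H2afy also without preparation 2 (-0.12). Of the named ratios over all alternatives, 298 kept direction and side of the threshold, 18 were no longer called, 2 (both H3f3b) became called and 7 turned. The cause was not tested. A slide or scan block could not be fitted with 1 slide and scan.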

Other observations

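Another 37 probes are described as histones in the array files but listed under transcript or locus identifiers, and so lie outside the rule above. Of these, 20 were called higher and 2 lower, with a median log2 ratio of 1.09, where 4.44% of all probes were called higher and 4.18% lower. The 4 described as H4-like or as an H4 variant at LOC102548682, LOC102551184, LOC102557184 and RGD1562378 had ratios of 3.74, 3.46, 2.13 and 2.70. Of the 26 that start before base 400 of their transcript 17 were called higher and 0 lower, with a median of 1.25, and of the 11 from base 400 on 3 were called higher and 2 lower, with a median of 0.24. These probes share mRNAs and arrays with the probes of the report, so they are a description and no separate support.

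A probe described as Hist2h2aa3 but listed under a transcript identifier starts at base 333. It gave 13.51, 13.52 and 13.87 in replicating and 12.00, 12.75 and 12.38 in quiescent cells, a ratio of 1.26 and called higher, whereas the probe listed as Hist2h2aa3, from base 513 with 35 bases beyond the stem-loop, was called lower at -1.74. A further probe described as Hist1h2ac, from base 319, had a ratio of 1.50 (11.51, 11.73 and 11.97 against 9.95, 10.17 and 10.60), while the probe listed as Hist1h2ac, from base 592, stood well above background on 0 arrays. The probes from bases 333 and 319 each share a run of at least 20 bases with the Hist1h2ak probe. Their signals may thus include the mRNA of other H2A genes.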
